A study of Mus musculus with 6 samples.

Results

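The 10 genes described here encode the subunits of the transcription factor NF-κB and the proteins that hold it in check: Nfkb1, Nfkb2, Rela, Relb and Rel (the subunits), Nfkbia, Nfkbib and Nfkbie (the classical inhibitors IκBα, IκBβ and IκBε), Nfkbiz (IκBζ) and Tnfaip3 (A20). They were chosen by gene symbol, with earlier results of these data known. All 10 were found among the 14097 genes of the deposited table. All 10 also reached 50 normalized counts in at least 1 library, as did 11067 genes in all, and every test below was run across those 11067.

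RNA was sequenced from macrophages (MΦs) sorted from the colonic lamina propria of 129SvEv mice as CD45+CD11b+CD11cint CD103-CD64+Ly6C-MHCII+ cells, the P3/P4 population thought to be resident MΦs. The paper presumes that MΦs of early infancy come from the yolk sac, with monocyte-derived MΦs replacing them around weaning. The 6 libraries came from Il10rb-/- mice (KO) and Il10rb+/- mice (Het), with 1 library for each genotype and age (1, 3 and 12 weeks). A single mouse gave each 3-week and 12-week library, several pooled mice gave each 1-week library, and none was treated. Il10rb encodes a receptor chain shared by IL-10 and other cytokines such as IL-22, and the deletion is in the germline, so every cell type of a KO mouse lacks it and every Het mouse carries 1 deleted allele.

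In resting cells NF-κB dimers are kept in the cytoplasm by IκB proteins. When a toll-like or cytokine receptor is engaged, the IKK kinase marks IκB for destruction, the dimers enter the nucleus and, among other genes, they induce their own inhibitors Nfkbia, Nfkbie and Tnfaip3, which ends the response. In gut MΦs this pathway drives inflammatory cytokine genes, and IL-10 is known for restraining that output.

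The libraries held between 6700337 reads (Het at 3 weeks) and 40754971 reads (Het at 12 weeks) assigned to genes, so that 1 read was worth 0.473 to 2.43 normalized counts. Il10rb itself had 1231, 386 and 2341 reads in the Het libraries at 1, 3 and 12 weeks and 8, 28 and 43 reads in the KO libraries, as the genotype labels say. With 1 library per genotype and age, a ratio within an age has no replicate check, and its 95% interval (Clopper-Pearson) covers counting error only. The only comparison of genotypes with replication takes the 3 ages as replicates, and its error is the spread of the genotype difference between ages.

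NF-κB binds a short κB sequence in promoters and enhancers of the genes it induces, and several of the 10 genes carry such letters near their annotated start. The promoter windows (RefSeq, GRCm38.p6) run from 250 bases before to 50 bases after a start. A window was available for 7 of the 10 genes, namely Nfkb2, Rela, Rel, Nfkbia, Nfkbib, Nfkbie and Tnfaip3. A match to the 10-base κB consensus on either strand was found for 5 of the 7, against 9.55% of the 27025 genes with a window and 8.46% of all windows. For each of these 5 genes a stretch is printed below, with every match in capitals.
Nfkb2, chr19:46304668-46304738, plus strand: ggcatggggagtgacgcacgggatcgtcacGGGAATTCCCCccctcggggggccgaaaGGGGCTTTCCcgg
Rel, chr11:23771021-23771091, minus strand: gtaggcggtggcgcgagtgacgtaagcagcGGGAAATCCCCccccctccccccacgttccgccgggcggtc
Nfkbia, chr12:55492637-55492706, minus strand: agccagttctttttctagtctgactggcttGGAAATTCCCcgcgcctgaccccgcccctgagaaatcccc
Nfkbie, chr17:45555564-45555633, plus strand: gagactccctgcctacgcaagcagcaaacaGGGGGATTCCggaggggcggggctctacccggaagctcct
Tnfaip3, chr10:19015383-19015452, minus strand: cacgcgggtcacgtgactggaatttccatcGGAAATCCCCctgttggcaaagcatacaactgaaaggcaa
Counting the annotated start as 0, the capitals lie at -39 to -29 and -11 to -2 in Nfkb2, -92 to -82 in Rel, -29 to -20 in Nfkbia, -106 to -97 in Nfkbie and -12 to -3 in Tnfaip3. In Nfkb2 and Rel the run of 11 capitals holds 2 matches that overlap by all but 1 base, and other stretches of the Nfkb2 and Tnfaip3 windows, not printed, held further matches. No match was found in the Rela and Nfkbib windows, which says only that these letters are not there. The genes with a match and those without one both had their highest values at 12 weeks, as the values below show.

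The subunits were higher at 12 weeks than at the younger ages. By the deposited values each was above Het in KO at every age, though within counting error for Rela at 1 week. Nfkb1 (ENSMUSG00000028163, chr3:135584655-135691547), the gene of the p105 precursor from which p50 is cut, had 1018 normalized counts in Het and 1349 in KO at 1 week, 1015 and 1279 at 3 weeks, then 2198 and 3639 at 12 weeks. Relb (ENSMUSG00000002983, chr7:19606217-19629438), the partner of p52 in the alternative pathway, had 990 and 1258 at 1 week, 976 and 1255 at 3 weeks, then 2130 and 3401 at 12 weeks. Both genes were flat between 1 and 3 weeks in either genotype, above Het in KO at each age, and highest in the KO library at 12 weeks. Their KO to Het log2 ratios were 0.41, 0.33 and 0.73 for Nfkb1 and 0.35, 0.36 and 0.67 for Relb at 1, 3 and 12 weeks. Over the 6 libraries the centred profiles of these 2 genes were each other's nearest of all 11067 genes. Their root mean square difference was 0.03 on the log2 scale. Next nearest to both was Ndel1, at 0.09 from Nfkb1 and 0.10 from Relb. Nfkb1 and Relb lie on different chromosomes, and both are known as NF-κB-induced genes. No promoter window was available for either gene, and the reason for their close profiles was not tested.

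Nfkb2 (ENSMUSG00000025225, chr19:46304320-46312385), which encodes p100, the precursor of p52 and itself an inhibitor of RelB, had 1596 normalized counts in Het and 1941 in KO at 1 week. It had 1733 and 2393 at 3 weeks, then 3749 and 6481 at 12 weeks. KO was above Het at every age, by a log2 ratio of 0.28 (95% counting interval 0.17 to 0.39) at 1 week, 0.47 (0.35 to 0.59) at 3 weeks and 0.79 (0.75 to 0.83) at 12 weeks. On the opposite strand Nfkb2 overlaps Psd, and whether reads were counted by strand is not given in the sources used here, so a part of its count could belong to that gene. As a ratio of normalized counts to Rela within the same library, with no correction for length, Nfkb2 stood at 0.755, 0.730 and 1.03 in the Het libraries at 1, 3 and 12 weeks and at 0.897, 0.933 and 1.28 in the KO libraries. This ratio does not depend on the scaling between libraries, and it was higher in KO at each age.

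Rela (ENSMUSG00000024927, chr19:5637483-5648130) encodes p65, the main activating subunit. Its values were 2114 in Het and 2164 in KO at 1 week, 2373 and 2563 at 3 weeks, then 3622 and 5047 at 12 weeks. At 1 week the genotypes lay within counting error of each other, with a log2 ratio of 0.03 and an interval of -0.06 to 0.13, and the ratio reached 0.48 (0.43 to 0.52) at 12 weeks. Rel (ENSMUSG00000020275, chr11:23736847-23770970) encodes c-Rel, which is most abundant in lymphoid and myeloid cells. It had 5704 and 6810 normalized counts at 1 week, 4716 and 7140 at 3 weeks, then 12381 and 14019 at 12 weeks. Unlike the other 4 subunits, Rel had its widest gap between the genotypes at 3 weeks (log2 ratio 0.60, interval 0.53 to 0.67), and its ratio of 0.18 at 12 weeks turned to -0.04 when the libraries were scaled by total reads.

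**Figure D1:**
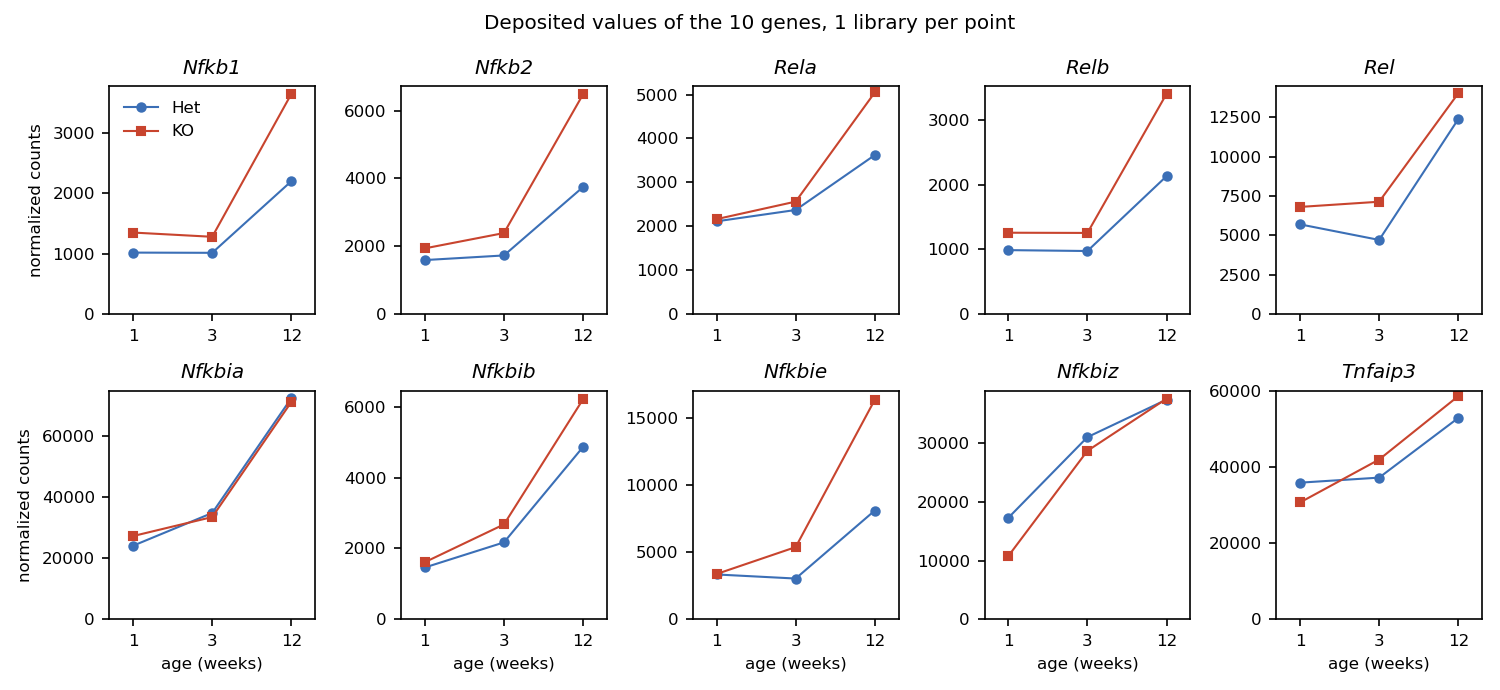
Normalized counts (y axis, from 0, a scale of its own in each panel) of the 10 genes at 1, 3 and 12 weeks (x axis, evenly spaced categories), with blue circles for Het and red squares for KO; each point is 1 library and no error can be drawn. All 10 genes have both 12-week points above the 4 younger ones, and Nfkbie shows the widest gap between the genotypes at 12 weeks (8080 against 16323).

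Among the classical inhibitors, Nfkbie had the widest gap between the genotypes at 3 and 12 weeks and Nfkbia the narrowest, while at 1 week Nfkbia had the widest and Nfkbie the narrowest. Nfkbie (ENSMUSG00000023947, chr17:45555703-45563169), whose product IκBε holds mainly c-Rel- and RelA-containing dimers, had 3321 normalized counts in Het and 3355 in KO at 1 week, 3018 and 5359 at 3 weeks, then 8080 and 16323 at 12 weeks. The 1-week libraries did not differ beyond counting error (log2 ratio 0.01, interval -0.06 to 0.09), and KO was 1.78-fold higher at 3 weeks and 2.02-fold higher at 12 weeks. Nfkbie also differed most among the 10 genes when the 2 ages were set against each other within KO, being 3.05-fold higher at 12 than at 3 weeks. It was the one gene of the 10 past 3-fold in that step, where 5.75% of all genes were over 3-fold higher. Its log2 step of 1.61 became 1.57 with TMM scaling and 1.19 with scaling by total reads, both short of 3-fold.

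Nfkbia (ENSMUSG00000021025, chr12:55489410-55492647) encodes IκBα, the inhibitor that is degraded and remade fastest. Its values were 23979 and 27141 at 1 week, 34682 and 33353 at 3 weeks, then 72195 and 70961 at 12 weeks. The gene was thus 2.08-fold higher at 12 than at 3 weeks in Het and 2.13-fold higher in KO, while KO and Het differed by a log2 ratio of 0.18 at 1 week, -0.06 at 3 weeks and -0.02 at 12 weeks. The within-library ratio of Nfkbia to Nfkbie was 7.22 in Het and 8.09 in KO at 1 week, 11.5 and 6.22 at 3 weeks, then 8.93 and 4.35 at 12 weeks. This ratio, which takes no account of gene length, was lower in KO than in Het at 3 and 12 weeks and higher at 1 week.

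Nfkbib (ENSMUSG00000030595, chr7:28758251-28767512) encodes IκBβ, which is degraded more slowly than IκBα. It had 1460 and 1610 normalized counts at 1 week, 2171 and 2679 at 3 weeks, then 4873 and 6222 at 12 weeks. Its values increased at both steps of age in either genotype, and KO was above Het at each age by log2 ratios of 0.14, 0.30 and 0.35. Nfkbib overlaps Ccer2 and Sirt2 on the opposite strand, and their share in its count was not tested.

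Nfkbiz and Tnfaip3 followed another course, with less change from 3 to 12 weeks and with KO below Het at 1 week. Nfkbiz (ENSMUSG00000035356, chr16:55811375-55838899) encodes IκBζ, a nuclear protein that works with p50 as a coactivator of genes such as Il6 and Lcn2 rather than as an inhibitor in the cytoplasm. It had 17294 normalized counts in Het and 10758 in KO at 1 week, 31083 and 28744 at 3 weeks, then 37489 and 37647 at 12 weeks. KO was therefore 0.622 of Het at 1 week (log2 ratio -0.68, interval -0.73 to -0.64), and at 12 weeks the ratio was 0.01 (-0.01 to 0.02), which became -0.21 with scaling by total reads. Nfkbiz was the member with the largest step from 1 to 3 weeks, 1.80-fold in Het and 2.67-fold in KO.

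Tnfaip3 (ENSMUSG00000019850, chr10:19000910-19015657) encodes A20, a ubiquitin-editing enzyme that shuts off signalling upstream of IKK. It had 35930 normalized counts in Het and 30716 in KO at 1 week, 37260 and 42026 at 3 weeks, then 52973 and 58716 at 12 weeks. KO was below Het at 1 week (log2 ratio -0.23, interval -0.25 to -0.20) and above it at 3 weeks (0.17, interval 0.15 to 0.20) and 12 weeks (0.15), the last of which turned to -0.07 with scaling by total reads. Relative to Nfkbia in the same library, Tnfaip3 was 1.498 and 1.13 in Het and KO at 1 week and 0.734 and 0.827 at 12 weeks.

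**Figure D2:**
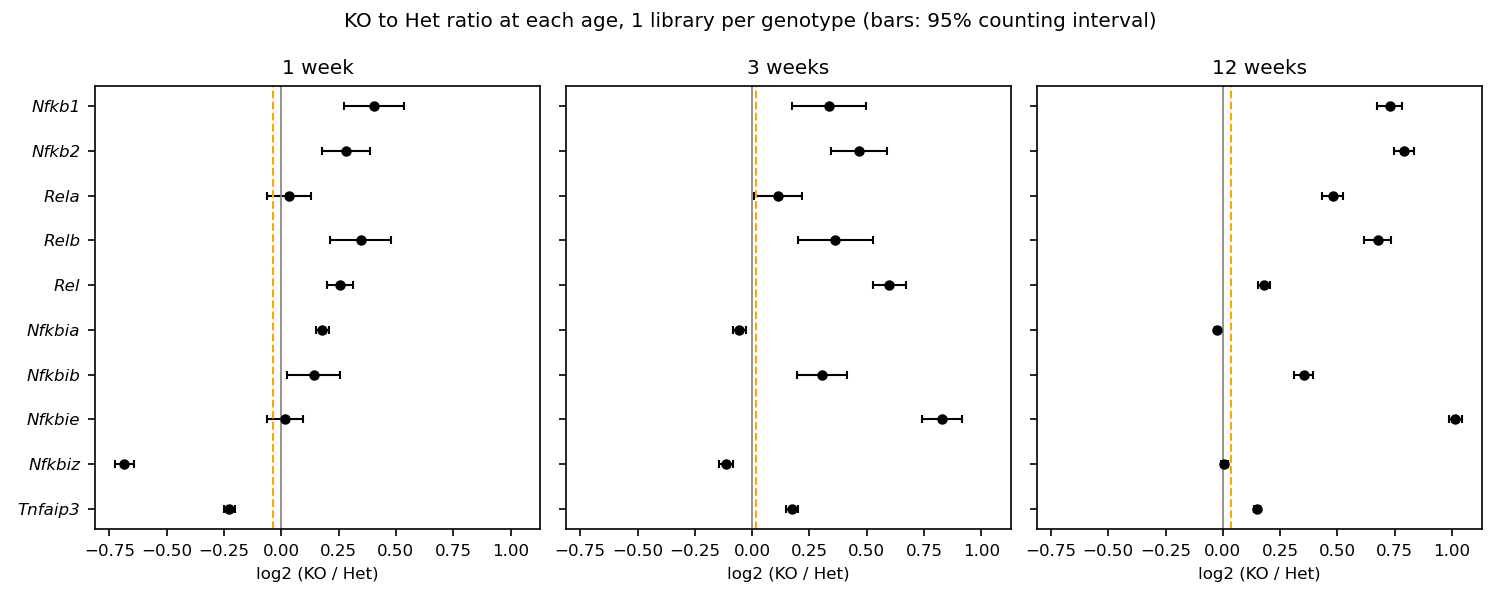
The log2 ratio of KO to Het (x axis) for each of the 10 genes (y axis) at 1, 3 and 12 weeks; bars are 95% counting intervals from 1 library per genotype and the dashed orange line is the median of all 11067 genes. Nfkbie moves from 0.01 at 1 week to 1.01 at 12 weeks, while Nfkbiz moves from -0.68 to 0.01 (-0.21 at 12 weeks when scaled by total reads).

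KO against Het was the question of the study, and across the 3 ages the 10 genes differed by small amounts. No member passed an adjusted p of 0.05 in limma, nor did any of the 11067 genes (0% called). At an unadjusted p under 0.05 KO was higher for 4 of 10 members, Nfkb1, Nfkb2, Relb and Nfkbie, where 4.4% of all genes were higher by that rule. That count of 4 fell to 2 without the 1-week or the 12-week pair, to 1 without either single 12-week library or with no mean-variance trend, and to 0 without the 3-week pair or with no age term. Leaving out the 12-week pair or either of its libraries gave the same fitted differences, because the age term takes up a lone 12-week library. These are therefore not separate checks. With all libraries the fitted KO minus Het differences were 0.49 (SE 0.16) for Nfkb1, 0.51 (SE 0.17) for Nfkb2, 0.46 (SE 0.16) for Relb and 0.62 (SE 0.24) for Nfkbie on the log2(normalized count + 1) scale, each with an adjusted p of 0.627. Those of the other 6 ran from -0.26 for Nfkbiz to 0.34 for Rel, with 0.03 for both Nfkbia and Tnfaip3, and their 95% intervals all included 0.

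KO was above Het at all 3 ages for 7 of 10 members (the 5 subunits, Nfkbib and Nfkbie), against 17.4% of all genes. This became 6 of 10, without Rel, against 12.9% when the libraries were scaled by total reads. Leaving out the 12-week pair, 7 of 10 were higher in KO at both 1 and 3 weeks, against 25.2% of all genes. The median log2 ratio of the 10 genes was 0.16 at 1 week, 0.32 at 3 weeks and 0.42 at 12 weeks, beside -0.04, 0.02 and 0.04 for all genes. Scaling by total reads lowered every 12-week KO to Het log2 ratio by 0.22 and the member median to 0.19. None of the 10 differed by over 3-fold at any age, where 3.5% of all genes did so at 1 week, 1.98% at 3 weeks and 14% at 12 weeks. Nfkbia and Tnfaip3 were the 2 of 10 members whose counting intervals lay on opposite sides of 0 at 2 ages under each of 3 scalings, a share close to the 19.9% of all genes. Over the 3 ages the KO and Het ranges overlapped for every member, and the share of all genes that did so was not computed. Each range also spans the steps with age, so the overlap says little about the genotypes.

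With age the libraries did not overlap between 12 weeks and the younger ages. Both 12-week libraries were above all 4 younger ones for 10 of 10 members, against 19.2% of all genes, and for 9 of 10 (not Nfkbiz) against 7.65% when scaled by total reads. The members' median log2 step from 3 to 12 weeks was 1.11 in Het and 1.15 in KO, beside 0.01 and 0.05 for all genes, and the 2 steps share no library. None of the 10 was over 3-fold higher in Het in this step, where 5.41% of all genes were. With the 2 genotypes as replicates, limma called 0 of 10 members at an adjusted p of 0.05 and 0.0271% of all genes. At an unadjusted p under 0.05, 8 of 10 were higher at 12 weeks, all but Nfkbiz and Tnfaip3, against 11.3% of all genes. The largest fitted steps were 1.51 (SE 0.29) for Nfkbie, 1.31 (SE 0.20) for Nfkb1 and 1.28 (SE 0.19) for Relb, with adjusted p of 0.138, 0.114 and 0.114. The smallest were 0.33 (SE 0.28) for Nfkbiz and 0.50 (SE 0.27) for Tnfaip3.

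From 1 to 3 weeks the members moved less. Their median log2 step was 0.09 in Het, which became -0.05 with scaling by total reads, and 0.30 in KO. None of the 10 was called by limma at an adjusted p of 0.05, where 0.0181% of all genes were. At an unadjusted p under 0.05 the higher members were Nfkbib, at 0.65 (SE 0.18, adjusted p 0.381), and Nfkbiz, at 1.13 (SE 0.28, adjusted p 0.322), against 6.04% of all genes. Nfkb1, Relb and Rel had fitted steps of -0.04, -0.01 and -0.10. The 15 immediate early and heat shock genes, which cell isolation is known to induce, were all higher at 3 weeks than at 1 week in both genotypes. Of all genes, 45.2% were higher in Het and 50.9% in KO. The median log2 step of the 15 was 0.77 in Het and 0.78 in KO. From 3 to 12 weeks 8 of the 15 were higher in Het and 7 in KO, with medians of 0.08 and -0.02, beside 50.7 and 52.8% of all genes. At 1, 3 and 12 weeks 6, 6 and 1 of the 15 were higher in KO than in Het. The shares of all genes were 46.0, 52.1 and 52.0%, and the median log2 ratio of the 15 at 12 weeks was -0.52. The part of the 15 in the steps and genotype differences of the 10 genes was not tested.

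**Figure D3:**
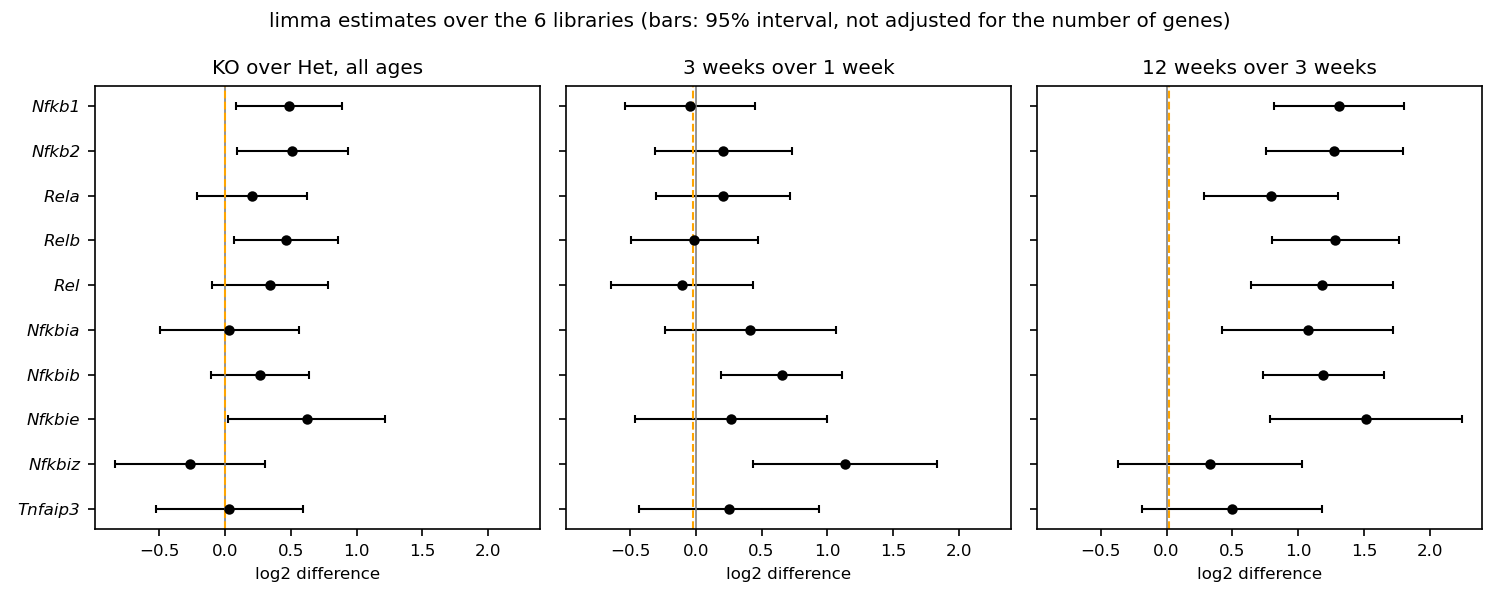
Estimates of limma over the 6 libraries on the log2(normalized count + 1) scale (x axis) for the 10 genes (y axis), for KO over Het, 3 weeks over 1 week and 12 weeks over 3 weeks; bars are 95% intervals not adjusted for the number of genes, and the dashed orange line is the median of all genes. In the right panel 8 intervals lie above 0 and those of Nfkbiz and Tnfaip3 cross it.

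Both 12-week libraries stood apart from the younger ones in neutrophil and dendritic cell markers, the KO library more so. The KO library also stood apart in macrophage markers, and the Het library in B and plasma cell markers. Of 12 macrophage markers, 5 were over 3-fold lower in the 12-week KO library than in the Het library of the same age, as were 1106 of the 11067 genes. Among the 5 were Cx3cr1 (906 against 8074 normalized counts) and Adgre1 (3800 against 16537). Csf1r (46878 against 47225) was level and 5 of the 12 were higher, such as Ptprc (32232 against 21815). Of 7 neutrophil markers, 6 were in the table and 4 passed the filter. The summed level of these 4 was 9.93 to 32.6 in the 4 younger libraries, 416 in Het and 5231 in KO at 12 weeks. Ly6g had 0 reads in 4 of the 6 libraries. Of 8 dendritic cell markers, 7 passed the filter. They summed to 1862 to 4362 in the younger libraries and to 11717 and 43265 at 12 weeks, mostly Ccr7, which is also known as an NF-κB target. Ly6c2, the gene of the antigen that the sort excluded, had 2611 normalized counts in KO and 143 in Het at 12 weeks and 285 in KO at 3 weeks. The 8 B and plasma cell markers in the table summed to 18498 in Het and 2015 in KO at 12 weeks and to 1308 to 3775 in the younger libraries. Of 5 T cell markers past the filter, 4 were above all 4 younger libraries in both 12-week libraries, against 19.2% of all genes. Their sum was nonetheless lower at 12 weeks, 1985 in Het and 947 in KO, beside 2179 to 3287 in the younger libraries. The stromal and endothelial markers summed to 784 in Het and 1528 in KO at 1 week, 3621 and 3779 at 3 weeks, then 5372 and 1093 at 12 weeks. The epithelial markers past the filter, 8 of 10, summed to 184 and 956, 1482 and 729, then 908 and 2203. In bulk RNA, fewer cells of a type and less RNA per cell cannot be told apart, and the part of these cells in the levels of the 10 genes was not tested.

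All 10 members were above all 4 younger libraries in the 12-week Het library alone, against 29.1% of all genes, and in the 12-week KO library alone, against 39.4%. The limma fit without the 12-week KO library called 6 of 10 members higher at 12 than at 3 weeks (Nfkb1, Nfkb2, Relb, Rel, Nfkbib and Nfkbie), with 4.36% of all genes called higher, and so rests on the Het library with the B and plasma cell markers. The fit without the 12-week Het library called 8 of 10, those 6 with Rela and Nfkbia, with 14.1% of all genes called higher, and so rests on the KO library with the neutrophil and dendritic cell markers. The summed neutrophil and dendritic cell markers were above the younger libraries in the 12-week Het library as well. Both fits assume that the lone 12-week mouse varies like the younger libraries. The KO minus Het differences without either 12-week library were 0.37 for Nfkb1, 0.37 for Nfkb2, 0.35 for Relb and 0.42 for Nfkbie.

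Per kb of annotated exon, Nfkbia, Nfkbiz, Tnfaip3 and Nfkbie were more abundant than every subunit in each library. Nfkbia was highest in all 6 libraries, at 14894 to 44842 normalized counts per kb, followed by Nfkbiz and Tnfaip3 in changing order, at 2144 to 7502 and 4251 to 8126 per kb. Nfkbie came next at 991 to 5361 per kb and changed places with Nfkbib only in Het at 3 weeks (991 against 1001 per kb). Nfkbib, Rel and Rela had medians of 1118, 934 and 803 per kb and changed places between libraries. Nfkb2, Relb and Nfkb1 closed the order in every library with medians of 473, 323 and 109 per kb. The length used for Nfkb1, 12.1 kb, joins every annotated exon and so lowers its value per kb if some are not transcribed in MΦs. Together the 10 genes took 0.588 to 0.754% of the reads in the younger libraries and 1.04% in Het and 0.991% in KO at 12 weeks.

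**Figure D4:**
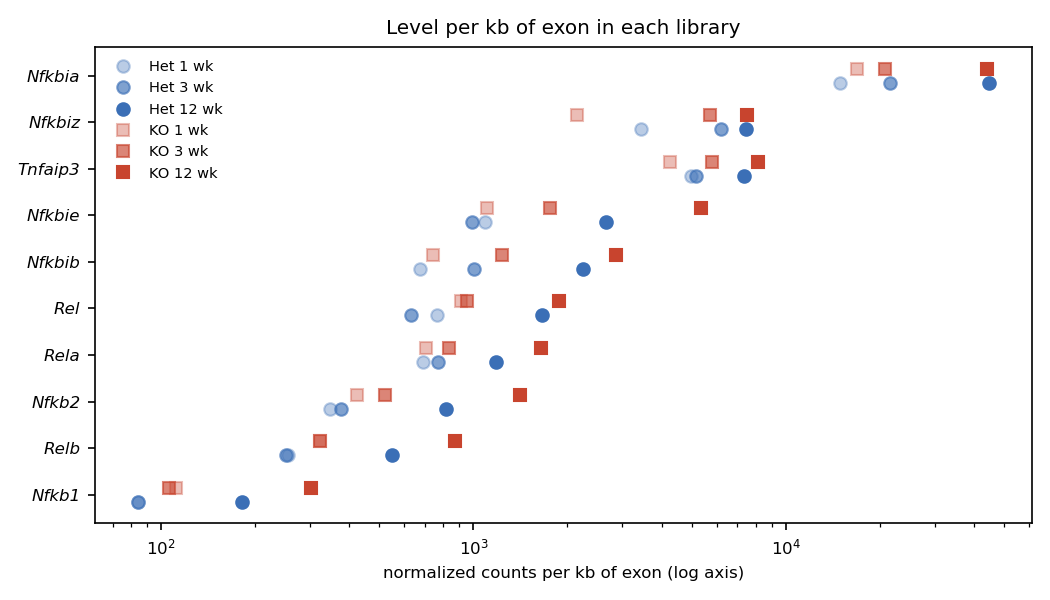
Normalized counts per kb of annotated exon (x axis, log scale) of the 10 genes (y axis, ordered by the median of 6 libraries); blue circles are Het, red squares are KO, and darker symbols are older. Nfkbia has the highest point of every library (14894 to 44842 per kb) and Nfkb1 the lowest.

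Some members had close neighbours among all genes and others did not. For each member, profiles of log2(normalized count + 1) over the 6 libraries were centred and compared by their root mean square difference. Nfkb2 was nearest to Opa3 (0.08) and Rela to Lppr3 (0.06). Rel was nearest to Gstt2 (0.07), Nfkbia to Tuba1c (0.11) and Nfkbie to Jak2 (0.13). Nfkbib lay nearest to Trib1 (0.09), with Bcl3 the third (0.10). Tnfaip3, whose values varied least, lay within 0.2 of 544 genes, the nearest being Depdc7 (0.04), whereas Nfkbiz, nearest to Acap1 (0.11), had 8 genes within 0.2.

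The remaining IκB family members were Bcl3 and Nfkbid, which like IκBζ act in the nucleus. Bcl3 had 825 and 1077 normalized counts at 1 week, 1407 and 1549 at 3 weeks, then 2938 and 3426 at 12 weeks in Het and KO. Nfkbid had 9256 and 5537 at 1 week, 13594 and 11473 at 3 weeks, then 13432 and 13393 at 12 weeks. Nfkbid thus had KO below Het at 1 week (log2 ratio -0.74) and -0.00 at 12 weeks by the deposited scaling, and its ratio to Nfkbiz within a library ran from 0.356 to 0.535.

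The 27 genes of the IKK complex and the adaptors upstream of it all reached the filter. Their median KO to Het log2 ratio was -0.21 at 1 week, 0.21 at 3 weeks and 0.60 at 12 weeks, and KO was higher for 5, 23 and 19 of the 27, or 18.5, 85.2 and 70.4%, beside 46.0, 52.1 and 52.0% of all genes. None was called at an adjusted p of 0.05, and at an unadjusted p under 0.05 1 of 27 was higher in KO and none lower, where 4.4% of all genes were higher and 3.31% lower. At 12 weeks the highest ratios were those of Malt1, the paracaspase of the CARD-BCL10-MALT1 complex, at 2.02 (5367 against 21775 normalized counts), Traf6, a ubiquitin ligase below toll-like receptors, at 1.45, and Ikbkb, the catalytic IKK subunit, at 1.30. The lowest were Traf5 at -0.65, Tab2 at -0.40 and Btrc, the ubiquitin ligase subunit that recognizes phosphorylated IκB, at -0.40. Malt1 was above Het in KO at 1 week (0.48) and 3 weeks (1.43) as well.

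Of 14 other negative regulators, none was called at an adjusted p of 0.05 between the genotypes, and at an unadjusted p under 0.05 3 of 14 were higher in KO and none lower, beside the same 4.4 and 3.31% of all genes. Their median log2 ratios were 0.03, 0.31 and 0.34 at the 3 ages. The A20-binding proteins differed from one another at 12 weeks: Tnip1 was higher in KO (0.99) and Tnip2 (-0.65) and Tnip3 (-1.41) were lower. Irak3, a pseudokinase that restrains toll-like receptor signalling, had the highest ratio at 1.65 (725 against 2283 normalized counts), followed by Tax1bp1, an A20 adaptor, at 1.38. Pdlim2, a ubiquitin ligase for nuclear p65, stood at -1.11.

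The 29 target genes spread far more widely than the subunits and inhibitors did. Their median KO to Het log2 ratios were 0.17, 0.58 and 0.57 at 1, 3 and 12 weeks. None was called between the genotypes at an adjusted p of 0.05, and at an unadjusted p under 0.05 11 were higher in KO and 2 lower, where 4.4% of all genes were higher and 3.31% lower. The paper had already named Il1a, Il12b, Il23a and Nos2 of this list as higher in KO at 12 weeks from these libraries. The spread of the list and its count of 11 are therefore not independent of these data. From 3 to 12 weeks limma called 1 of the 29, Cxcl3, higher (adjusted p 0.034), a gene named here after its values were seen. Of all genes 0.0271% were called in that step, and none with scaling by total reads or with no mean-variance trend. At 12 weeks the highest were Nos2, the inducible nitric oxide synthase, at 8.48 (10.4 against 3705 normalized counts), Lcn2, an iron-sequestering antimicrobial protein, at 5.69 (9.46 against 488), and Il23a, a subunit of IL-23, at 3.33 (1041 against 10458). The lowest were the monocyte chemokine Ccl2 at -4.22 (31968 against 1720), the protease Mmp9 at -1.39 and the neutrophil chemokine Cxcl1 at -1.18. The 10 subunits and inhibitors ran from -0.02 to 1.01 in the same pair of libraries.

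**Figure D5:**
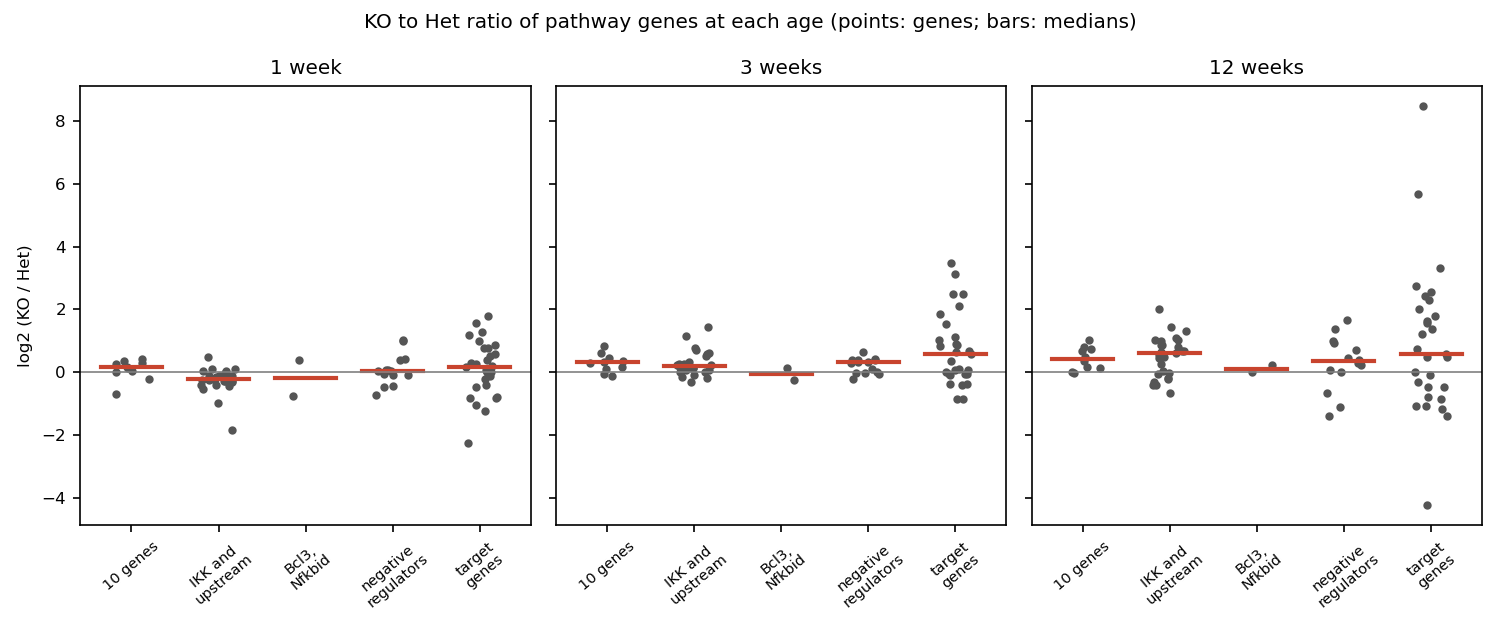
The log2 ratio of KO to Het (y axis) at 1, 3 and 12 weeks for the 10 genes and 4 further lists of the pathway (x axis); grey points are genes, jittered sideways, and red bars are medians. At 12 weeks the target genes run from -4.22 to 8.48 while the 10 genes stay between -0.02 and 1.01.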

How the data were processed

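Per the labels and the study's methods, the authors trimmed reads with Trim Galore, aligned them to mm10 with TopHat, counted them per gene with HTSeq and divided the counts by DESeq size factors. The deposited values are this signal in normalized counts, 1 column per library, with 0 shown as 1; versions and strand setting are not given in the sources used here. Each value was a whole multiple of 1 read's worth (tolerance 0.01), so reads per library (6700337 to 40754971) could be read back for counting intervals; PCR copies are not separated, so intervals cover counting error only. Since 0 is shown as 1, the values were treated as a signal and not as counts, and limma 3.58.1 (R 4.3.3) was used in place of a count test, on log2(value + 1) of the 11067 genes reaching 50 in at least 1 library, with age and genotype as terms, a variance trend over mean level, and p-values adjusted by Benjamini-Hochberg, checked on simulated data. No library has a replicate of its genotype and age, so p-values measure only how far effects differ between ages or genotypes. The members and gene lists were chosen with earlier results of these data known. Pathway genes were named by a rule: all genes of lists of up to 4, otherwise the 3 highest and 3 lowest KO to Het ratios at 12 weeks. Positions and exon lengths are from GENCODE vM21 (GRCm38). Python 3.11.15, numpy 2.4.6, pandas 2.3.3, scipy 1.17.1 and matplotlib 3.10.9 were used. Scaling, filter, pseudocount, trend, model terms and libraries were varied.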

Additional observations from a re-analysis of the deposited data

Results flagged for a closer look

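The sign of the KO to Het difference changed between ages for 2 of the 10 genes, with counting intervals on opposite sides of 0 at both ages under each of the 3 scalings, as it did for 19.9% of the 11067 genes. The members thus did so about as often as all genes. Nfkbia had a log2 ratio of 0.18 at 1 week and of -0.0564 at 3 weeks and -0.0249 at 12 weeks. Tnfaip3 had a log2 ratio of -0.23 at 1 week and 0.17 at 3 weeks. With 1 library per genotype and age, these differences between ages were not tested.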

How the results depend on the processing

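No member was called between the genotypes or from 1 to 3 weeks under any alternative; from 3 to 12 weeks 6 were called without the 12-week KO library and 8 without the 12-week Het library, settings chosen after seeing the data, and 0 under the rest. Counts over all genes moved more. For KO against Het, 0 genes became 1 with a pseudocount of 10, 1 with no age term, 20 without 1 week, 3 without 3 weeks, 61 without 12 weeks, 63 without the 12-week KO library and 74 without the 12-week Het library. For 3 weeks against 1 week, 2 genes became 8 with a pseudocount of 10, 0 with no mean-variance trend and 5 with no genotype term. For 12 weeks against 3 weeks, 3 genes became 0 by total reads, 8 with a pseudocount of 10, 0 with no trend, 1 with no genotype term, 657 without the 12-week KO library and 3124 without the 12-week Het library. Scaling by total reads moved the members' median KO to Het ratio at 12 weeks from 0.42 to 0.19, their step from 3 to 12 weeks to 0.87 in Het and 0.74 in KO, their step from 1 to 3 weeks to 0.12 in KO, and reversed that step in Het to -0.0519. By total reads these single values, all on one side of 0 beyond counting error or fitted, also turned: the KO against Het fits of Nfkbia (-0.0558) and Tnfaip3 (-0.0563), the 12-week ratios of Rel (-0.0417) and Tnfaip3 (-0.0724), Tnfaip3 from 1 to 3 weeks in Het (-0.0848), Rel from 1 to 3 weeks in KO (-0.11) and Nfkbiz from 3 to 12 weeks in KO (-0.0276). So did 2 values within counting error of 0, the 12-week ratio of Nfkbiz (-0.215, and -0.011 by TMM) and Nfkb2 from 1 to 3 weeks in Het (-0.019). With libraries left out the KO against Het fits of Nfkbia (-0.0406 to 0.0769) and Tnfaip3 (-0.0388 to 0.161) turned in some cases, and with TMM the step of Relb from 1 to 3 weeks turned to 5.34e-06. The causes were not tested. The age term sets KO against Het within each age. No paired analysis was possible because no group has a second replicate number, so there is no block beyond age. A planned edgeR test was not run: reads could be read back for intervals, but the deposited values, with 0 shown as 1, were treated as a signal. The 3-week Het library had the fewest reads.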
